A study of Mus musculus with 12 samples.

Results

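The genes described here are 6 annexins (Anxa1, Anxa2, Anxa4, Anxa5, Anxa6 and Anxa7), the annexin A2 partner S100a10, and the membrane repair genes Dysf, Trim72 and Ahnak. They were chosen by name, with earlier results of these data known, so their counts beside those of all genes are descriptions only. They are 10 of the 26264 genes listed in each count file, and all 10 passed the filter on low counts that left 13499 genes. RNA came from the mouse tibialis anterior, a fast muscle at the front of the shin, in 12 libraries: 4 from muscle given 50 µl of an extracellular matrix gel made from tissue, at 6 mg per ml, 4 from muscle given 50 µl of the vehicle PBS (phosphate-buffered saline), and 4 from uninjured muscle. The gel went into the left leg and PBS into the right, so the side of the body cannot be told apart from the treatment in gel against PBS, and gel and PBS libraries of the same number are read as legs of 1 animal. The uninjured libraries carry other animal numbers and are all named as left legs, so side cannot be told apart from group in PBS against uninjured either. The study concerns recovery of injured muscle. Neither the kind of injury of these muscles nor the time of collection is given in the sources used here, and the PBS muscles are not labelled as uninjured.

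Annexins are proteins that bind acidic phospholipids when calcium rises. When the membrane of a muscle fibre tears, calcium enters, and annexins gather at the lesion together with dysferlin, a calcium sensor for vesicle fusion encoded by Dysf, and MG53, a muscle ubiquitin ligase encoded by Trim72 that assembles at the tear. Annexin A2 forms a tetramer with S100A10, and this complex binds the very large scaffold protein AHNAK, which is also a partner of dysferlin. Many annexins are not restricted to muscle: annexin A1 is abundant in phagocytes and mediates resolution of inflammation, and annexin A2 on cell surfaces binds plasminogen activator.

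The promoters of the 4 annexins that rose in gel muscle and of Ahnak, which was lower after either injection, are shown because these genes moved together or stood apart from the rest. Windows run from 250 bases before to 50 bases after the start site, 5′ to 3′ on the gene's own strand, from RefSeq on build GRCm38.p6, which is not the build of the counts; 8 of the 10 genes had a window, and the first listed is given where a gene has several. Capitals mark TATAAA and TGANTCA, searched on both strands.
Anxa1 (chr19:20390622-20390921, minus strand): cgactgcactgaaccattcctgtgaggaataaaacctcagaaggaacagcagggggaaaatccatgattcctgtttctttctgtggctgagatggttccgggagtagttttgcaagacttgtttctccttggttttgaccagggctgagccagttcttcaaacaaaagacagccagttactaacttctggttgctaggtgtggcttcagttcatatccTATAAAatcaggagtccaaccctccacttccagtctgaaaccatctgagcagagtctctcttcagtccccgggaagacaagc
Anxa2 (chr9:69453433-69453732, plus strand): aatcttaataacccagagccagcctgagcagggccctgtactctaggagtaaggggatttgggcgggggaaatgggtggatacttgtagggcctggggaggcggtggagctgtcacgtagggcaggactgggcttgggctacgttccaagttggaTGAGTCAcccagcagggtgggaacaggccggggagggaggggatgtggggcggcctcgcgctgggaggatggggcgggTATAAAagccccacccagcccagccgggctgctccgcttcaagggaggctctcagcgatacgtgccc
Anxa4 (chr6:86793535-86793834, minus strand): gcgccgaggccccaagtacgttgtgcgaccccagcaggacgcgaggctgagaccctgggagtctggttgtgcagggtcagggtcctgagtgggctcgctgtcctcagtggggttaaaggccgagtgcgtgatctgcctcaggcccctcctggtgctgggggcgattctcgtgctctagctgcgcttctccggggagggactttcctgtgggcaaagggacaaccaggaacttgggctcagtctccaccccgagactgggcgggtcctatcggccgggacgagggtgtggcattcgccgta
Anxa5 (chr3:36475838-36476137, minus strand): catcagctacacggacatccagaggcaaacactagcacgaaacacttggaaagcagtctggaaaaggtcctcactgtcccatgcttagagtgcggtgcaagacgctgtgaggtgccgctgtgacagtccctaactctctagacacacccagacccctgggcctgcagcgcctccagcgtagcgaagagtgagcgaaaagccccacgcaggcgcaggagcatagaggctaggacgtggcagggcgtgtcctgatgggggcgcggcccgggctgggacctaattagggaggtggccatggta
Ahnak (chr19:8989034-8989333, plus strand): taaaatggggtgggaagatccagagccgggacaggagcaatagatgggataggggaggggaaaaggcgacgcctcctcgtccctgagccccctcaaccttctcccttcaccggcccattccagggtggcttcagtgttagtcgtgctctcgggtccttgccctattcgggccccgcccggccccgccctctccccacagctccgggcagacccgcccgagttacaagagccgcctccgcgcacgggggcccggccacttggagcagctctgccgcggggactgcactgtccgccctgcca
TATAAA lay 32 bases before the start in Anxa1 and 17 bases before it in Anxa2, and TGANTCA lay 95 bases before it in Anxa2. None of these overlapped another motif searched. Among 32851 windows of 300 bases, 13.6% held TATAAA, 7.81% held TGANTCA and 72.3% held CANNTG. The genes described here had 11 windows, of which 2 held TATAAA, 1 held TGANTCA and 8 held CANNTG. No match means only that these letters are not in the window.

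Library totals were 15626086 to 22182483 counts in gel, 16714543 to 20488409 in PBS and 15970781 to 18787964 in uninjured libraries. The lowest count of any of the 10 genes in any library was 48, for Anxa1 in PBS library 3. Muscle identity was plain: Acta1, skeletal actin, was at 32030 to 39630 CPM (read counts scaled to the effective library total) in gel, 36460 to 49960 in PBS and 42700 to 46270 in uninjured libraries. Among gel libraries, number 3 was unlike the others, at 5.39 on the first principal component, while the others lay at -91.4 to -67.4. Macrophage markers moved with the gel group: the summed level of 16 macrophage markers was 1091, 1717, 107 and 1990 CPM in gel libraries 1 to 4, 32.7 to 67.8 CPM in PBS libraries and 49.7 to 89.5 CPM in uninjured libraries. Adgre1, a defining macrophage marker, had no count in PBS library 2 or uninjured library 2. Other leukocyte markers were also higher in gel libraries 1, 2 and 4. Neutrophil markers summed to 18.3, 24.3, 1.22 and 22.1 CPM in gel libraries 1 to 4, and to at most 2.53 CPM in the other groups. T and NK cell markers summed to 13.1, 11.45, 0.85 and 11.1 CPM, and to at most 1.08 CPM in the other groups. Of these lists, 1 of 8 neutrophil genes and 0 of 8 T and NK cell genes passed the filter. The part of these markers in the results below was not tested, and in these bulk samples fewer cells of a type and less RNA per cell cannot be told apart.

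In gel muscle compared with PBS muscle, Anxa1, Anxa2, Anxa4, Anxa5 and S100a10 rose, by 2.34-fold to 9.17-fold, and no gene of the 10 fell. Anxa6, Anxa7, Dysf, Trim72 and Ahnak did not pass the test, with log2 fold changes between -0.17 and 0.21. These 5 stand beside 29.8% of the 13499 genes tested that were called in edgeR's quasi-likelihood test at an adjusted p of 0.05, 16.6% higher and 13.2% lower. Of the 10 genes 4 were higher with no overlap between gel and PBS libraries and 0 lower, beside 10.4% and 9.74% of all genes. The median log2 fold change of the 10 genes was 0.72, beside 0.04 over all genes. The same 5 genes were called in all 19 alternatives tried, joined by Anxa6 and Dysf when libraries were scaled by their totals alone, a scaling that moved the median of all genes to 0.25.

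In gel muscle compared with uninjured muscle, the same 5 genes rose and Ahnak fell, beside 25.6% of all genes called, 14.5% higher and 11.1% lower. Groups did not overlap for Anxa4, which was higher, and Ahnak, which was lower, beside 11.3% and 11.7% of all genes. The calls of Anxa4, Ahnak and Anxa1 had the smallest p, and those of Anxa2 and S100a10 depended on single libraries, as given below. In PBS muscle compared with uninjured muscle, Ahnak fell and no other gene of the 10 passed, beside 6.17% of all genes called, 3.39% lower and 2.79% higher. Median log2 fold changes of the 10 genes were 0.44 for gel over uninjured and -0.31 for PBS over uninjured, beside 0.03 and 0.00084 over all genes.

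**Figure D1:**
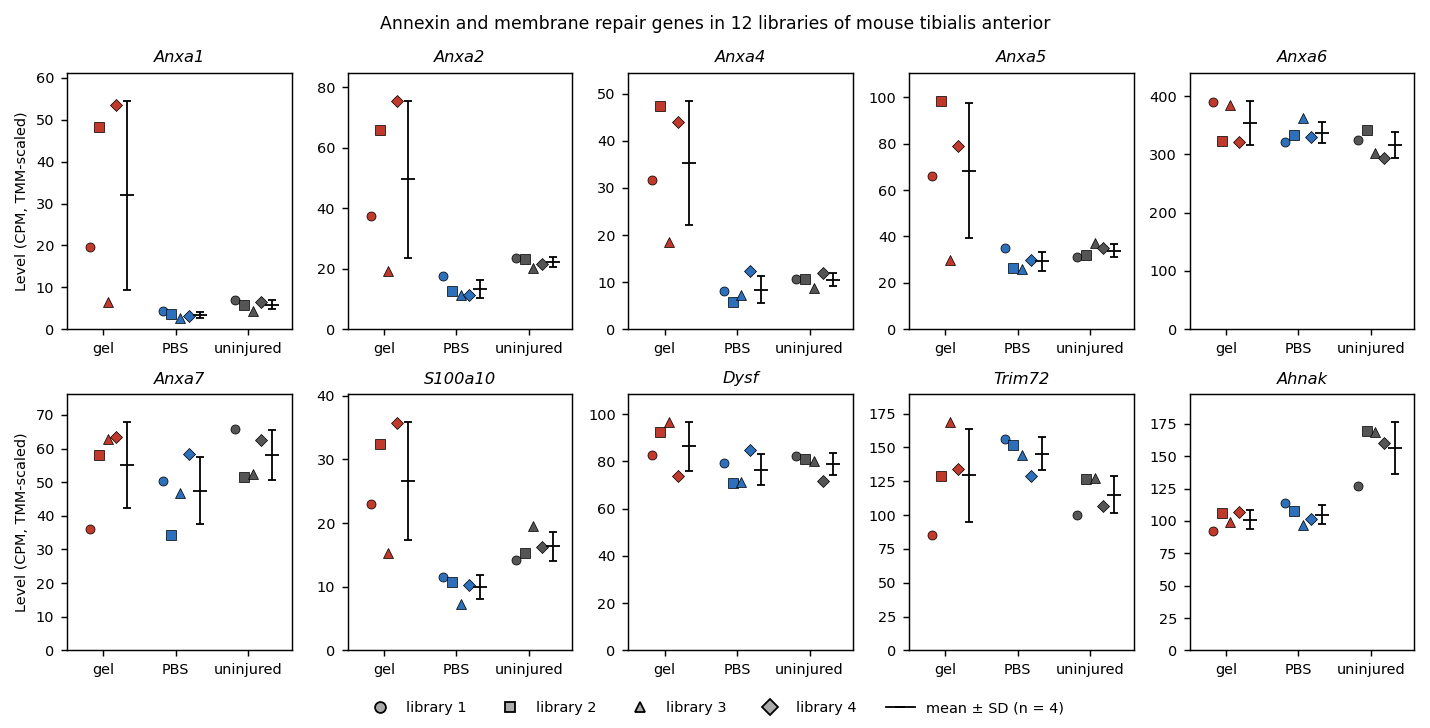
Level in CPM (scaled by trimmed mean of M values) of each of the 10 genes in gel, PBS and uninjured libraries; points are libraries, shaped by library number, and bars are mean ± SD (n = 4). Gel libraries 1, 2 and 4 lie above all PBS and uninjured libraries for Anxa1, Anxa2, Anxa4, Anxa5 and S100a10, gel library 3 does so for Anxa4 among these 5, and all gel and PBS libraries lie below the uninjured ones for Ahnak.

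Anxa1, which encodes a glucocorticoid-regulated annexin of leukocytes and other cells, had the largest fold of the 10. Its level was 19.7, 48.4, 6.59 and 53.4 CPM in gel libraries 1 to 4, against 4.44, 3.59, 2.75 and 3.18 CPM in PBS libraries and 6.99, 5.82, 4.33 and 6.46 CPM in uninjured libraries. All gel libraries were above all PBS libraries, but gel library 3 lay within the uninjured range. The log2 fold change was 3.20 ± 0.55 (SE) over PBS (edgeR adjusted p = 0.00319) and 2.44 ± 0.53 over uninjured (adjusted p = 0.00760). The second call was lost with limma voom (adjusted p = 0.0733; 1.32e-05 to 0.0733 over the alternatives). In PBS over uninjured muscle the value was -0.75 ± 0.55 (adjusted p = 0.463), and the groups overlapped by a single pair of libraries, PBS library 1 and uninjured library 3. It passed as lower with the 2 groups alone (adjusted p = 0.0239).

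Anxa2, which bundles actin and links membranes, was at 37.4, 66.0, 19.3 and 75.6 CPM in gel libraries, against 17.6, 12.6, 11.3 and 11.4 CPM in PBS libraries and 23.7, 23.3, 20.2 and 21.6 CPM in uninjured libraries. Gel library 3 was above every PBS library and below every uninjured library. Anxa2 rose by 1.90 ± 0.34 on the log2 scale over PBS (edgeR adjusted p = 0.00322) and by 1.16 ± 0.33 over uninjured (adjusted p = 0.0245). The call over uninjured was lost without gel library 2 (adjusted p = 0.0738) or 4 (0.0824), or without uninjured library 1 (0.0523), 2 (0.0551), 3 (0.0668) or 4 (0.0603). It was also lost with limma voom (0.0763), with no filter on low counts (0.0556) and with the 2 groups alone (0.0530).

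S100a10, the light chain of the annexin A2 tetramer, was at 23.0, 32.5, 15.3 and 35.7 CPM in gel libraries, against 11.5, 10.7, 7.21 and 10.2 CPM in PBS libraries and 14.2, 15.4, 19.6 and 16.2 CPM in uninjured libraries. All gel libraries were above all PBS libraries, and gel library 3 lay inside the uninjured range. It rose by 1.43 ± 0.23 on the log2 scale over PBS (edgeR adjusted p = 0.00173) and by 0.71 ± 0.23 over uninjured (adjusted p = 0.0327). The call over uninjured was lost without gel library 2 (adjusted p = 0.106) or 4 (0.128), without uninjured library 1 (0.0886), 2 (0.0848) or 4 (0.0737), with limma voom (0.0583) and with the 2 groups alone (0.0603).

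Both chains of this tetramer were lowest in PBS muscle, with no overlap between PBS and uninjured libraries for either. The log2 fold change of PBS over uninjured was -0.74 ± 0.34 for Anxa2 (edgeR adjusted p = 0.223) and -0.72 ± 0.23 for S100a10 (adjusted p = 0.0784), so neither passed. With Ahnak they made 3 of the 10 genes that were lower without overlap in this comparison, beside 10.2% of all genes. Both passed as lower when gel library 3 was left out of the common variance estimate (adjusted p = 0.0251 for Anxa2 and 0.00943 for S100a10), and with the 2 groups alone (0.00134 and 0.00367). S100a10 also passed in the DESeq2 Wald test (0.0405).

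The log2 ratio of Anxa2 to S100a10 within a library, which does not depend on library scaling, averaged 0.79 ± 0.34 in gel, 0.42 ± 0.25 in PBS and 0.45 ± 0.30 in uninjured libraries (SD, n = 4 each). Its ranges were 0.34 to 1.08 in gel, 0.16 to 0.65 in PBS and 0.04 to 0.74 in uninjured libraries. The ranges overlap, and the smallest gel ratio was that of gel library 3.

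Anxa4, an annexin best known from epithelia, had the smallest p of the 10 over PBS and ranked 56 among all genes. Its level was 31.6, 47.5, 18.4 and 44.0 CPM in gel libraries, against 8.15, 5.71, 7.21 and 12.4 CPM in PBS libraries and 10.6, 10.7, 8.79 and 12.03 CPM in uninjured libraries. All 4 gel libraries, gel library 3 included, lay above all PBS and uninjured libraries. The log2 fold change was 2.09 ± 0.29 over PBS (edgeR adjusted p = 0.00127) and 1.75 ± 0.28 over uninjured (adjusted p = 0.00107). It stayed between 1.89 and 2.31 over PBS in the 19 alternatives. In PBS over uninjured muscle it was -0.34 ± 0.28 (adjusted p = 0.530).

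Anxa5, whose product binds exposed phosphatidylserine and forms lattices at membrane wounds, was at 66.1, 98.5, 29.7 and 79.0 CPM in gel libraries, against 34.9, 26.5, 26.0 and 29.7 CPM in PBS libraries and 31.0, 32.2, 37.1 and 35.1 CPM in uninjured libraries. Gel library 3 sat inside the PBS range and below every uninjured library, while the other 3 gel libraries were above all of both. Anxa5 rose by 1.22 ± 0.27 on the log2 scale over PBS (edgeR adjusted p = 0.00570) and by 1.02 ± 0.27 over uninjured (adjusted p = 0.0148). In PBS over uninjured muscle it was at -0.21 ± 0.27 (adjusted p = 0.706).

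Without gel library 3 the log2 fold changes over PBS were 3.52 ± 0.31 for Anxa1, 2.16 ± 0.21 for Anxa2, 2.29 ± 0.21 for Anxa4, 1.46 ± 0.14 for Anxa5 and 1.61 ± 0.18 for S100a10. In that library the level relative to the PBS mean was 2.21 for Anxa4, 1.89 for Anxa1, 1.54 for S100a10, 1.46 for Anxa2 and 1.01 for Anxa5. The same library had 107 CPM of macrophage markers and 188 CPM of 6 regenerating fibre markers, such as embryonic myosin Myh3. For these regenerating fibre markers the other gel libraries were at 191, 563 and 698 CPM, PBS libraries at 55.1 to 93.2 and uninjured libraries at 44.4 to 60.6. The sum of 9 fibroblast markers, of which Col1a1 and Col3a1 were the most abundant in gel muscle, was 573 CPM in gel library 3. It lay inside the PBS range of 498 to 1144 and below the lowest uninjured sum, 630. The other gel libraries were at 2661 to 3158. Of the 9 markers 4 rose and none fell over PBS, beside 16.6% and 13.2% of all genes. Over uninjured 3 rose and 1, Ly6a, fell, beside 14.5% and 11.1% of all genes.

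**Figure D2:**
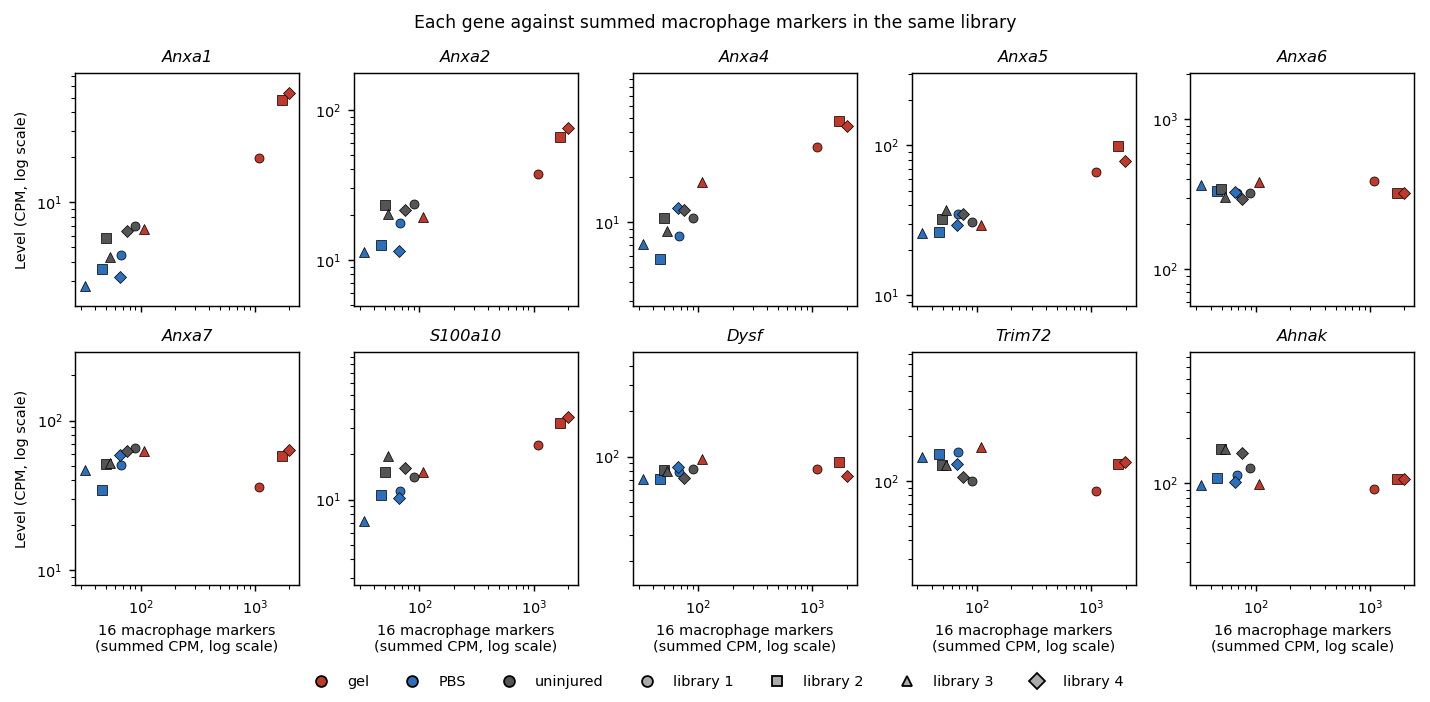
Level of each gene (CPM, log scale, the same span in each panel) against the summed level of 16 macrophage markers (CPM, log scale) in the same library; colour is the group and shape the library number. Anxa1, Anxa2, Anxa4, Anxa5 and S100a10 are highest in the 3 gel libraries with 1091 CPM of markers or more, and Ahnak lies between 91.9 and 107 CPM in all gel libraries.

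Anxa6, the annexin with duplicated core domains that forms a repair cap on muscle fibres and modifies muscular dystrophy in mice, did not pass in any comparison. It was at 390, 322, 384 and 320.5 CPM in gel libraries, against 321, 334, 363 and 330 CPM in PBS libraries and 325, 343, 303 and 294 CPM in uninjured libraries. The groups overlapped throughout. Log2 fold changes were 0.07 ± 0.12 over PBS (edgeR adjusted p = 0.674) and 0.16 ± 0.12 over uninjured (adjusted p = 0.318), and 0.09 ± 0.12 for PBS over uninjured (adjusted p = 0.700). The gel values passed as higher when libraries were scaled by totals alone (0.27 and 0.43, adjusted p = 0.0350 and 0.00341).

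Anxa7, an annexin with a long amino-terminal tail, was at 36.1, 58.0, 62.8 and 63.5 CPM in gel libraries, against 50.5, 34.4, 46.7 and 58.5 CPM in PBS libraries and 65.9, 51.4, 52.3 and 62.7 CPM in uninjured libraries. No pair of groups separated. The log2 fold change was 0.21 ± 0.18 over PBS (edgeR adjusted p = 0.402), -0.08 ± 0.18 over uninjured (adjusted p = 0.796), and -0.29 ± 0.18 for PBS over uninjured (adjusted p = 0.381). Its sign over uninjured turned without gel library 1 (0.078) and with library totals (0.19).

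Dysf and Trim72, genes of the fibre's own repair machinery, did not pass the test in any comparison. Dysf was at 82.6, 92.3, 96.8 and 73.8 CPM in gel libraries, against 79.2, 70.9, 71.3 and 84.8 CPM in PBS libraries and 82.3, 81.1, 80.2 and 71.9 CPM in uninjured libraries. Its log2 fold changes were 0.17 ± 0.11 for gel over PBS, 0.13 ± 0.11 for gel over uninjured and -0.04 ± 0.11 for PBS over uninjured, with edgeR adjusted p of 0.266, 0.428 and 0.869. The gel values passed as higher with library totals alone (0.36 over PBS and 0.39 over uninjured, adjusted p = 0.0138 and 0.00928), and that scaling turned the PBS over uninjured value to 0.027.

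Trim72 was at 85.4, 129, 169 and 134 CPM in gel libraries, against 156, 152, 145 and 129 CPM in PBS libraries and 100.3, 127, 128 and 106 CPM in uninjured libraries. Every PBS library was above every uninjured library, and the gel libraries spread over both. The log2 fold change was 0.34 ± 0.17 for PBS over uninjured (edgeR adjusted p = 0.256, and 0.0209 with the 2 groups alone), beside 10.4% of all genes higher without overlap. It was -0.17 ± 0.17 for gel over PBS (adjusted p = 0.475) and 0.17 ± 0.17 for gel over uninjured (adjusted p = 0.495). With library totals alone the gel over PBS value turned to 0.020, and the gel over uninjured value passed (0.42, adjusted p = 0.0410). The level in gel library 3 was the highest of the 12 and that in gel library 1 the lowest.

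Ahnak was the one gene of the 10 that fell. It was at 91.9, 107, 99.0 and 107 CPM in gel libraries, against 114, 108, 96.9 and 101 CPM in PBS libraries and 127, 170, 169 and 160 CPM in uninjured libraries. Every gel and every PBS library was below every uninjured library, and gel library 3 lay among the other gel libraries. Tendon markers had the same pattern: the summed level of 5 such markers was 96.5 to 134.6 CPM in gel and 75.2 to 125.2 CPM in PBS libraries, against 182 to 238 CPM in uninjured libraries. Most of this sum was Thbs4, with means of 98.0 CPM in gel, 77.6 CPM in PBS and 151 CPM in uninjured muscle. Of the 4 tested, Fmod and Thbs4 fell in gel over uninjured muscle, beside 11.1% of all genes. These and Tnmd fell in PBS over uninjured muscle, beside 3.39% of all genes. The part of tendon markers in the Ahnak result was not tested. The log2 fold change was -0.63 ± 0.12 for gel over uninjured (edgeR adjusted p = 0.00178) and -0.58 ± 0.12 for PBS over uninjured (adjusted p = 0.00982). Both calls were kept in all 19 alternatives, with the highest adjusted p at 0.0391 and 0.0448. These comparisons share the uninjured libraries. Gel over PBS was at -0.05 ± 0.12 (adjusted p = 0.765), and 0.15 with library totals alone.

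**Figure D3:**
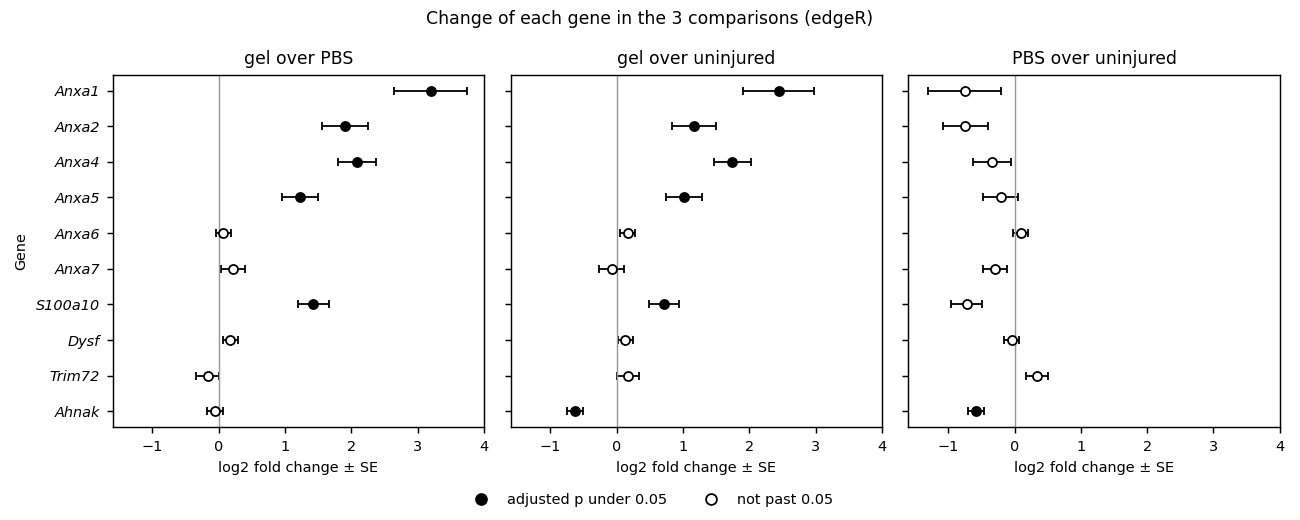
Log2 fold change ± SE of the 10 genes for gel over PBS, gel over uninjured and PBS over uninjured, with filled points past an edgeR adjusted p of 0.05. Anxa1 reaches 3.20 over PBS, and Ahnak is at -0.63 and -0.58 against uninjured muscle in the comparisons of gel and of PBS.

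Levels were also divided by the length of the merged exons of all annotated transcripts of a gene (GENCODE vM21). This length can exceed that of the transcripts expressed, and the order of genes depends on it. On this scale the order of mean levels in uninjured muscle was Anxa6 at 108 CPM per kb, Trim72 at 51.6, Anxa5 at 19.0, S100a10 at 13.5, Anxa7 at 9.70, Dysf at 9.47, Ahnak at 7.84, Anxa2 at 5.95, Anxa4 at 2.27 and Anxa1 at 2.03. Anxa7 and Dysf did not differ beyond their SDs of 1.22 and 0.57, nor did Anxa4 and Anxa1 beyond 0.29 and 0.40. In gel muscle Anxa6 at 121 and Trim72 at 57.9 were still the most abundant, followed by Anxa5 at 38.5 and S100a10 at 22.0 CPM per kb. Anxa2 at 13.3 ± 6.94 and Anxa1 at 11 ± 7.74 overlapped Dysf at 10.4 ± 1.23 CPM per kb (SD, n = 4). Exons of Anxa2, Anxa4, Dysf and Trim72 overlap antisense or long noncoding genes by 98, 75, up to 352 and 617 bases, and the strand setting of the counting is not given, so a share of their reads could belong to those genes.

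The log2 ratio of Dysf to Trim72 averaged -0.55 ± 0.37 in gel, -0.92 ± 0.22 in PBS and -0.54 ± 0.18 in uninjured libraries (SD, n = 4 each). It was -0.05, -0.48, -0.80 and -0.86 in gel libraries, -0.98, -1.10, -1.02 and -0.60 in PBS libraries and -0.29, -0.64, -0.67 and -0.56 in uninjured libraries. Of the PBS libraries, 3 were below all others and PBS library 4 lay within the gel and uninjured ranges.

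Among the 10 genes themselves, Anxa6 and Dysf had the most similar profiles over the 12 libraries, with a root-mean-square difference of 0.15 between their centred log2 CPM values. Anxa5 and S100a10 were at 0.28 and Anxa2 and S100a10 at 0.31. Among the 7053 other genes with a mean of at least 10 CPM, the profiles nearest to Anxa2 were those of H2-T23, Pip4k2a, Prkcd and Emp1, at 0.22 to 0.27. Those nearest to Trim72 were Dtna, which encodes the dystrophin-associated alpha-dystrobrevin, at 0.08, and Mrpl44, Pomk and Abraxas2, at 0.11 to 0.14. These are descriptions over libraries that share group and composition.

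Other annexins, S100 proteins and repair genes were taken from 9 lists of 72 genes, of which 60 passed the filter on low counts. In gel over PBS muscle 16 of the 60 rose and 10 fell in edgeR, and their median log2 fold change was -0.01, beside 0.04 over all genes and the shares called given above. In gel over uninjured muscle 13 rose and 6 fell, with a median of -0.02, and in PBS over uninjured muscle 1 rose and 3 fell, with a median of 0.03. Fitted on the 8 gel and PBS libraries alone the first count was 10 higher and 4 lower, and with the animal as a block in those 8 libraries it was 10 higher and 6 lower. It was 9 and 5 without gel library 2, 8 and 2 without gel library 4, 10 and 5 without PBS library 2 and 11 and 6 without PBS library 3. With library totals alone it was 22 and 4. In PBS over uninjured muscle it was 10 in all without gel library 3, 2 without PBS library 1 or 3 or uninjured library 2, 3 or 4, and 1 without PBS library 2. The gel over uninjured count was 7 in all without gel library 2, 8 without gel library 4, and 10 and 11 without uninjured library 3 or 4.

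**Figure D4:**
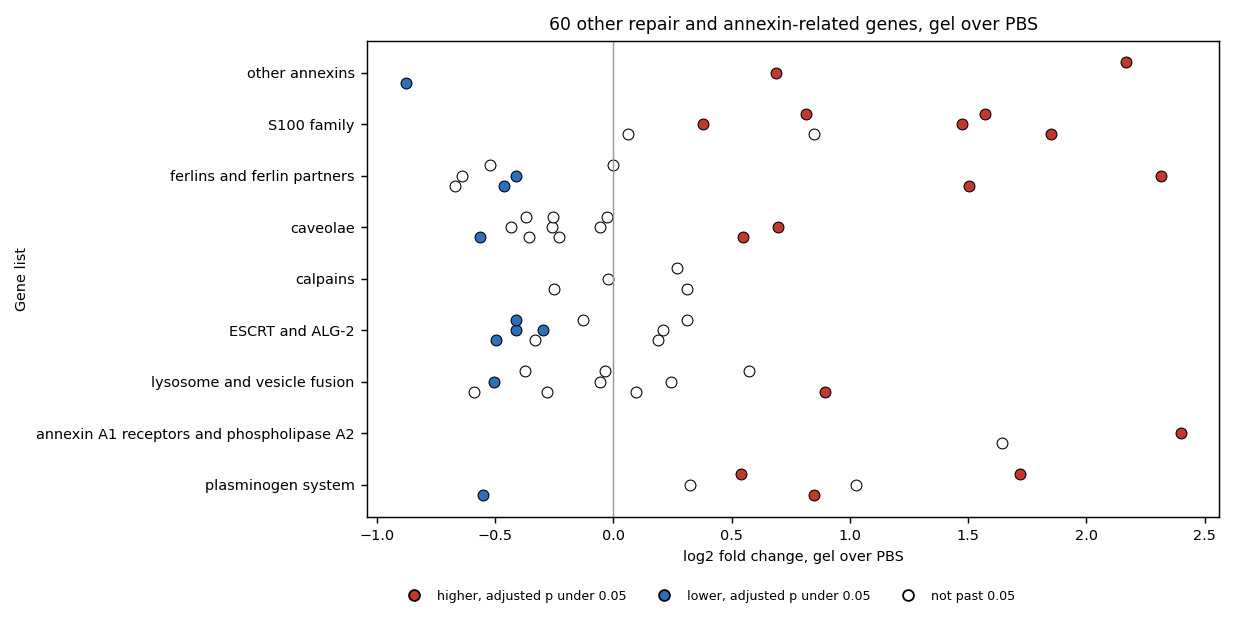
Log2 fold change of gel over PBS for the 60 tested genes of 9 lists of annexin-related and membrane repair genes, 1 point for each gene, coloured where the edgeR adjusted p is under 0.05. S100 genes called lie to the right of 0, and the 4 ESCRT genes called lie between -0.49 and -0.30.

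Among S100 genes 5 of 7 rose and none fell over PBS, with a median of 0.85, and 5 rose over uninjured, beside 16.6% and 14.5% of all genes called higher. S100a11, a partner of annexin A1 in other cells, was at 180, 213, 45.7 and 160 CPM in gel libraries, against 46.0, 38.8, 42.1 and 39.1 CPM in PBS libraries and 60.5, 66.8, 58.0 and 62.8 CPM in uninjured libraries, and rose by 1.85 ± 0.34 on the log2 scale over PBS (edgeR adjusted p = 0.00347). S100a6 rose by 1.47 ± 0.21 over PBS (adjusted p = 0.00124), with gel library 3 at 32.7 CPM and all PBS libraries at 20.3 CPM or less. S100a13 rose by 0.81 ± 0.18 (adjusted p = 0.00540) with no overlap. S100a4 was at 1.57 ± 0.43 (adjusted p = 0.0187), which did not pass in the blocked fit (0.129) or without gel library 2 (0.0507), gel library 4 (0.0621) or PBS library 3 (0.0544).

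Of 6 other annexins 3 were tested, of which Anxa9 and Anxa3 rose and Anxa11 fell over PBS, beside 16.6% and 13.2% of all genes. Anxa9, an annexin of low abundance, rose to 2.84 ± 1.42 CPM in gel muscle, against 0.635 ± 0.299 CPM in PBS muscle (SD, n = 4 each; log2 fold change 2.17 ± 0.49, edgeR adjusted p = 0.00508). Gel library 3, at 0.733 CPM and 12 counts, lay inside the PBS range of 0.296 to 1.02 CPM, which rests on 6 to 17 counts. Anxa11 fell by 0.88 ± 0.23 on the log2 scale over PBS (adjusted p = 0.0144, and 0.0507 without gel library 4). It was at 16.5, 29.6, 46.9 and 26.2 CPM in gel libraries, against 46.4 to 68.2 CPM in PBS libraries and 28.5 to 32.4 CPM in uninjured libraries. Every PBS library was above every uninjured library, beside 10.4% of all genes. The value for PBS over uninjured was 0.82 ± 0.24 and did not pass (edgeR adjusted p = 0.0553). For gel over uninjured it was -0.05 ± 0.24 (adjusted p = 0.897). Anxa3 was at 0.69 ± 0.22 for gel over PBS (adjusted p = 0.0311), and that call was lost in 9 of 19 alternatives (adjusted p up to 0.105). It fell in PBS muscle, to 8.19 ± 1.01 CPM, against 16.03 ± 2.49 CPM in uninjured muscle (log2 fold change -0.97 ± 0.22, adjusted p = 0.0187). The fall did not pass without PBS library 2 (0.0528) or 3 (0.0598), without uninjured library 2 (0.0654) or 4 (0.0659), and with library totals alone (0.0518).

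Levels of mature fibre markers also differed in gel muscle, and their part in the values of the muscle genes that follow was not tested. Their sum over 10 genes was 118600 to 160300 CPM in gel, 153900 to 191300 CPM in PBS and 188000 to 204600 CPM in uninjured libraries. Of the 10, 4 fell and 1 rose over PBS, beside 13.2% lower and 16.6% higher over all genes. The median log2 fold change of the 10 was -0.45. Ckm, muscle creatine kinase, was at -0.92 and Actn3 at -0.93, while Mylpf, the one that rose, was at 0.41 and Pvalb at 0.05.

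Among 8 tested ferlins and ferlin partners, 2 rose and 2 fell over PBS, beside 16.6% higher and 13.2% lower over all genes. One that fell, Ano5, lost its call in 13 of 19 alternatives (adjusted p up to 0.121), and did not pass in gel over uninjured (-0.08 ± 0.14, adjusted p = 0.723). Ahnak2, a relative of Ahnak, rose by 1.504 ± 0.37 on the log2 scale over PBS (edgeR adjusted p = 0.00976) and by 1.91 ± 0.38 over uninjured (adjusted p = 0.00333), where Ahnak itself was lower. It was at 14.7, 18.3, 7.20 and 22.0 CPM in gel libraries, against 5.38, 3.05, 4.47 and 9.12 CPM in PBS libraries and 6.03, 3.24, 4.19 and 3.04 CPM in uninjured libraries. Myof, which encodes myoferlin, the ferlin of myoblast fusion, was at 13.4, 22.0, 1.95 and 20.8 CPM in gel libraries, against 1.72 to 4.13 CPM in PBS libraries and 2.28 to 6.14 CPM in uninjured libraries. It rose by 2.32 ± 0.61 over PBS (adjusted p = 0.0157, and 0.125 with limma voom), with gel library 3 inside the PBS range. Capn3, a muscle calpain that cleaves AHNAK, was at -0.46 ± 0.14 (adjusted p = 0.0246). Its call was lost without gel library 1 (0.0645), 2 (0.0692) or 4 (0.0728), without PBS library 1 (0.0510) or 2 (0.0598), with the 2 groups alone (0.0757), with the animal as a block (0.0594) and with library totals alone (0.0604). Capn3 was at -0.21 ± 0.14 for gel over uninjured (adjusted p = 0.304) and 0.25 ± 0.14 for PBS over uninjured (adjusted p = 0.317).

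Of 11 caveolar genes 2 rose and 1 fell over PBS, which is near the 16.6% higher and 13.2% lower of all genes. Ehd4, an endocytic ATPase gene, rose by 0.55 ± 0.12 on the log2 scale over PBS (edgeR adjusted p = 0.00387) and by 0.66 ± 0.12 over uninjured (adjusted p = 0.00121), with all gel libraries above all others. Its relative Ehd1 fell after either injection, by 0.75 ± 0.11 for gel over uninjured (adjusted p = 0.000295) and by 0.49 ± 0.11 for PBS over uninjured (adjusted p = 0.0124). Ehd1 was at 31.0 to 40.1 CPM in gel, 42.9 to 47.0 CPM in PBS and 58.5 to 64.8 CPM in uninjured libraries, with no overlap. Cavin4, a cavin of striated muscle, fell by 0.57 ± 0.16 over PBS (adjusted p = 0.0152, and 0.0744 with library totals alone). Its mean was 59.4 CPM in gel, 87.9 CPM in PBS and 58.5 CPM in uninjured muscle. Gel over uninjured was at 0.02 ± 0.16 (adjusted p = 0.936). In PBS over uninjured muscle Cavin4 rose by 0.59 ± 0.16 (adjusted p = 0.0376) with no overlap, a call lost in 8 of 19 alternatives.

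Of 9 tested genes of the ESCRT machinery, which sheds damaged membrane, 4 fell and none rose over PBS. This stands beside 13.2% lower and 16.6% higher over all genes. Their median log2 fold change was -0.30. Chmp4b, whose product forms the filaments of that machinery, was at 60.5, 65.7, 89.7 and 72.6 CPM in gel libraries, against 94.1, 92.7, 109.9 and 109.6 CPM in PBS libraries and 99.9, 101, 89.4 and 98.5 CPM in uninjured libraries. It fell by 0.49 ± 0.13 on the log2 scale over PBS (edgeR adjusted p = 0.0106). The other 3, Vps4a, Pdcd6ip and Chmp1a, each lost the call in at least 7 of 19 alternatives, library totals alone among them. No calpain gene of 4 passed over PBS, beside 29.8% of all genes called. Of 10 genes of lysosome and vesicle fusion, 1 rose and 1 fell over PBS, which is near the 16.6% and 13.2% of all genes. The one that rose, Asah1, lost its call in 10 of 19 alternatives (adjusted p up to 0.135).

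Ligand and receptor partners were thinly measured. The annexin A1 receptor genes Fpr1, Fpr2 and Fpr3 did not pass the filter on low counts. Of 2 tested genes of that list Alox5ap, which encodes the 5-lipoxygenase activating protein of leukocytes, rose by 2.40 ± 0.54 on the log2 scale over PBS (edgeR adjusted p = 0.00688), which did not pass in the blocked fit (0.109). Of 6 plasminogen system genes 3 rose and 1 fell over PBS, beside 16.6% and 13.2% of all genes. Over the 19 alternatives the call was lost in 13 for Plau, 7 for Serpine2, 6 for Plgrkt and 3 for Plaur. Plaur, the urokinase receptor gene, was at 6.78, 11.02, 1.40 and 9.98 CPM in gel libraries, against 1.74 to 2.62 CPM in PBS libraries and 1.22 to 3.00 CPM in uninjured libraries. Its value over PBS was 1.72 ± 0.47 (adjusted p = 0.0158), and the call was lost without gel library 4 (0.0507), with the animal as a block (0.0503) and with limma voom (0.107).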

How the data were processed

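Each library has 1 deposited file of read counts per gene symbol, which the authors had not normalised. Alignment with STAR to build mm39 is named in the submitters' processing notes, as is edgeR; no source used here gives versions, the counting program, its strand setting or the annotation. All files held 26264 genes, 0 rows without a gene name and 0 columns left over. Within groups the chi-square statistic per gene between libraries was 6.50 or higher, above sampling noise. Each group's 4 libraries served as replicates, 1 leg each.

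The counts entered edgeR 4.0.16 (R 4.3.3): filterByExpr, scaling by the trimmed mean of M values, and a robust quasi-likelihood model with 1 coefficient per group over 12 libraries, leaving 9 residual degrees of freedom. Benjamini-Hochberg adjustment covered all 13499 genes, with a threshold of 0.05. SE is the size of the log2 value over the root of F. CPM used the same scaling, and log2 CPM a prior count of 2. Means carry the SD of 4 libraries. Alternatives used DESeq2 1.42.0, limma 3.58.1, other scaling, no filter, the 2 groups alone, a replicate block in the 2 groups alone, or left out 1 library. Gel and PBS libraries of a number are taken as legs of 1 animal, because the deposited names give the same animal number with a left or right leg. Deviations from group means correlated at -0.06 to 0.31 within these pairs. The scripts were tested on simulated data. Genes outside the 10 were named by smallest p among those called, up to 4 from a list, or by nearness of profile. The genes and lists were chosen with earlier results of these data known.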

Additional observations from a re-analysis of the deposited data

How the results depend on the processing

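Over 19 alternatives, the 30 values of the 10 genes kept their direction and side of the threshold in 528 of 570 cases. Of the rest 20 lost a call, 17 gained one and 5 changed sign. All 5 had no call: with library totals alone Trim72 and Ahnak in gel over PBS (0.020 and 0.15), Anxa7 in gel over uninjured (0.19) and Dysf in PBS over uninjured (0.027), and without gel library 1 Anxa7 in gel over uninjured (0.078, in a range of -0.17 to 0.078 when single libraries were left out). The cause was not tested. For genes of the 10 called in gel over PBS the count stayed at 5 except with library totals, at 7. Leaving out 1 library gave 4 to 6 called in gel over uninjured and 1 to 3 in PBS over uninjured. In gel over uninjured the count was 3 with limma voom and 9 with library totals alone, 8 higher and 1 lower. In PBS over uninjured it was 2 with the DESeq2 Wald test and 5 with the 2 groups alone.

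Over all genes, leaving out 1 library gave 2456 to 5962 calls in gel over PBS, 2275 to 5341 in gel over uninjured and 378 to 1693 in PBS over uninjured. The lowest of these were without gel library 4 for the first 2 and without uninjured library 4 for the third, and the highest were without gel library 3. In PBS over uninjured the count also fell by over 1.5 times without PBS library 1, 2 or 3 (443, 410 and 543) and uninjured library 2 or 3 (438 and 393). The 2 groups alone gave 2559 calls for gel over PBS and 2339 for PBS over uninjured, where the DESeq2 Wald test gave 1417. With library totals alone the calls were 3401 higher and 1009 lower for gel over PBS, 3795 and 693 for gel over uninjured, and 755 and 343 for PBS over uninjured. For the listed repair genes, leaving out 1 library gave 10 to 33, 7 to 27 and 1 to 10 calls, and the 2 groups alone gave 14 for gel over PBS and 14 for PBS over uninjured.

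Fits with a replicate block used the 8 libraries of the 2 groups alone. With the animal as that block, 16 listed repair genes were called in gel over PBS, against 14 without it in the same libraries, and the calls of the 10 genes in that comparison did not change. Uninjured libraries share only a number with the others. Same-numbered libraries correlated best with each other for 2 of 8 libraries in gel and PBS, 4 of 8 in gel and uninjured and 6 of 8 in PBS and uninjured, where the correlations were 0.0077 to 0.088. With the number as a replicate block, Anxa1, Anxa4 and Ahnak (3 of the 10) and 11 listed genes were called in gel over uninjured, and Anxa5 was not (adjusted p = 0.0862). In PBS over uninjured 6 of the 10, 15 listed genes and 2539 of all genes were called with the block, against 5, 14 and 2339 in the same libraries without it. The 10 genes had 48 counts or more in each library, while the formyl peptide receptors had too few to test.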
